A study of Homo sapiens with 12 samples.

Results

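The mitochondrial ribosomal proteins are the nucleus-encoded proteins of the ribosome that works inside mitochondria. They were taken here as the protein-coding genes whose symbol starts with MRPL or MRPS followed by a number. This gave 77 genes of the 78894 genes in the deposited table, 49 named for the large subunit (MRPL) and 28 named for the small subunit (MRPS). Of these, 76 passed the filter on low counts, together with 11203 genes in all, and MRPL46 did not.

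The mitochondrial ribosome translates the few mRNAs of the mitochondrial genome, all of which code for subunits of the oxidative phosphorylation complexes. Its rRNAs come from mitochondrial DNA, while all of its proteins are made in the cytosol and imported. Some of these proteins have bacterial homologues and others exist in mitochondrial ribosomes alone. Cardiomyocytes, which are rich in mitochondria, depend on it for respiration.

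The study measured 3′-end mRNA counts in cardiomyocytes differentiated from the human induced pluripotent line WTC-mEGFP-ACTN2-cl85, with 3 libraries in each of 4 groups, each library from its own culture. All groups shared this 1 clonal line, with its heterozygous green fluorescent tag on ACTN2 (sarcomeric alpha-actinin), and lactate enrichment, which selects for cardiomyocytes. One group received vehicle, given in the labels as 16 uM DMSO, and one received 10 nM endothelin-1, a vasoconstrictor peptide that enlarges cardiomyocytes. A further group received 16 uM sacubitrilat, an inhibitor of neprilysin, a peptidase of the cell surface that cleaves natriuretic peptides, and the last received both compounds. Treatment lasted 48 h in every group. Groups were taken from the titles, the names of the libraries and the treatment label. In the 6 libraries with 1 compound a further line of the description gives the opposite compound, so a value printed for endothelin-1 would belong to sacubitrilat, and the reverse, if that line were correct.

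Depth differed between groups. The 6 libraries with a single compound held 1268308 to 1953122 counts and detected all 77 members, while the 6 vehicle and combined libraries held 80844 to 316932 counts and detected 65 to 77. The median member had 52.5 to 83.0 counts in a single-compound library and 3 to 11 in a vehicle or combined library. The 13 cardiomyocyte markers summed to 8690 to 15681 CPM (a gene's count scaled by its library total) with vehicle. The sums were 21205 to 22292 with endothelin-1, 14997 to 15683 with sacubitrilat and 13068 to 19978 with both. The 5 endothelial markers summed to at most 14.8 CPM and the 5 pluripotency markers to at most 22.9, with PECAM1, CDH5, VWF, NANOG and POU5F1 near 0. The 5 smooth muscle markers summed to 523 to 3635 CPM, and the 5 epicardial markers to 31.5 to 179.

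Letters of 4 promoter regions are shown for members that later results turn on. Capitals mark 3 searched motifs on either strand: CCGGAAG, which ETS factors such as GABPA bind, AAGATGGC, which YY1 binds, and the palindromic NRF1 motif. The sequences are from RefSeq (GRCh38.p14) and run 5′ to 3′ toward the gene, cut where the GENCODE v29 gene begins. They lie at chr2:99180934-99181078 (plus strand) for MRPL30, chr14:22829637-22829878 (plus strand) for MRPL52, chr6:43687792-43688041 (minus strand) for MRPS18A and chr2:75646533-75646782 (plus strand) for MRPL19.
MRPL30: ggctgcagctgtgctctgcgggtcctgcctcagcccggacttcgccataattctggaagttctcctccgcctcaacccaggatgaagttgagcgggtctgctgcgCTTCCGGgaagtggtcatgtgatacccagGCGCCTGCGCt
MRPL52: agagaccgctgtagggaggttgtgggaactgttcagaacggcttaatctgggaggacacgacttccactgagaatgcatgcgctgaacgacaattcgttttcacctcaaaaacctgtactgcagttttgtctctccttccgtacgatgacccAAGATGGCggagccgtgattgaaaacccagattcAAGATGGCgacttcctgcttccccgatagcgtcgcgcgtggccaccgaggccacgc
MRPS18A: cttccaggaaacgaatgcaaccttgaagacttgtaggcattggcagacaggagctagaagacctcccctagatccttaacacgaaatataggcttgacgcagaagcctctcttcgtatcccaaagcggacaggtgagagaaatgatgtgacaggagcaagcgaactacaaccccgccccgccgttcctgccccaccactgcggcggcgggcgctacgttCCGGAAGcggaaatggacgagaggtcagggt
MRPL19: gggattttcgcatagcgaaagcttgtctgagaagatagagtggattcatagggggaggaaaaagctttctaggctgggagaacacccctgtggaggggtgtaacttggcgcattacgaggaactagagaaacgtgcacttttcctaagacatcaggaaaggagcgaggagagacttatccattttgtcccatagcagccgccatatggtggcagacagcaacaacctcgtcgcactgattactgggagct
MRPL30 held an ETS and an NRF1 match, MRPL52 held 2 YY1 matches, MRPS18A held 1 ETS match close to its start, and MRPL19 held no match. MRPL30, MRPL52 and MRPS18A were higher with both compounds than with endothelin-1 alone, and MRPL19 was lower. These 4 were picked with their values known, so they cannot tell whether a motif goes with a direction.

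Over windows of 300 bases, 250 before and 50 after the start, 69 of the 77 members had an entry. An ETS match was found in 29 (42%) of them, against 14.2% of 15843 protein-coding genes. A YY1 match was found in 20 (29%), against 3.91%, an NRF1 match in 8 (11.6%), against 8.58%, and a TATAAA match in 2 (2.90%), against 9.63%. A match describes letters and not binding. Among members that were higher with both compounds than with endothelin-1, 6 of 11 with an entry held an ETS match, against 22 of 52 members not called and 1 of 5 that were lower. YY1 matches were in 3 of 11, 16 of 52 and 0 of 5, and NRF1 matches in 1 of 11, 7 of 52 and 0 of 5.

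Summed over their members, both subunits had the highest level with both compounds and the lowest with endothelin-1. The 49 large-subunit genes summed to 2293, 3338 and 2613 CPM in the vehicle libraries, 2115, 2082 and 2158 with endothelin-1, 2308, 2286 and 2344 with sacubitrilat, and 3941, 2918 and 2749 with both. The combined libraries all lay above both single-compound groups, and the endothelin-1 libraries lay below every other library. The 28 small-subunit genes summed to 1297, 1819 and 1436 CPM with vehicle, 1241, 1264 and 1224 with endothelin-1, 1256, 1258 and 1289 with sacubitrilat, and 1913, 1552 and 1403 with both. Here the endothelin-1 and sacubitrilat libraries overlapped, and all 6 lay below the vehicle and combined libraries. In bulk RNA, a change in the number of cells of a type cannot be told apart from a change of RNA per cell.

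**Figure D1:**
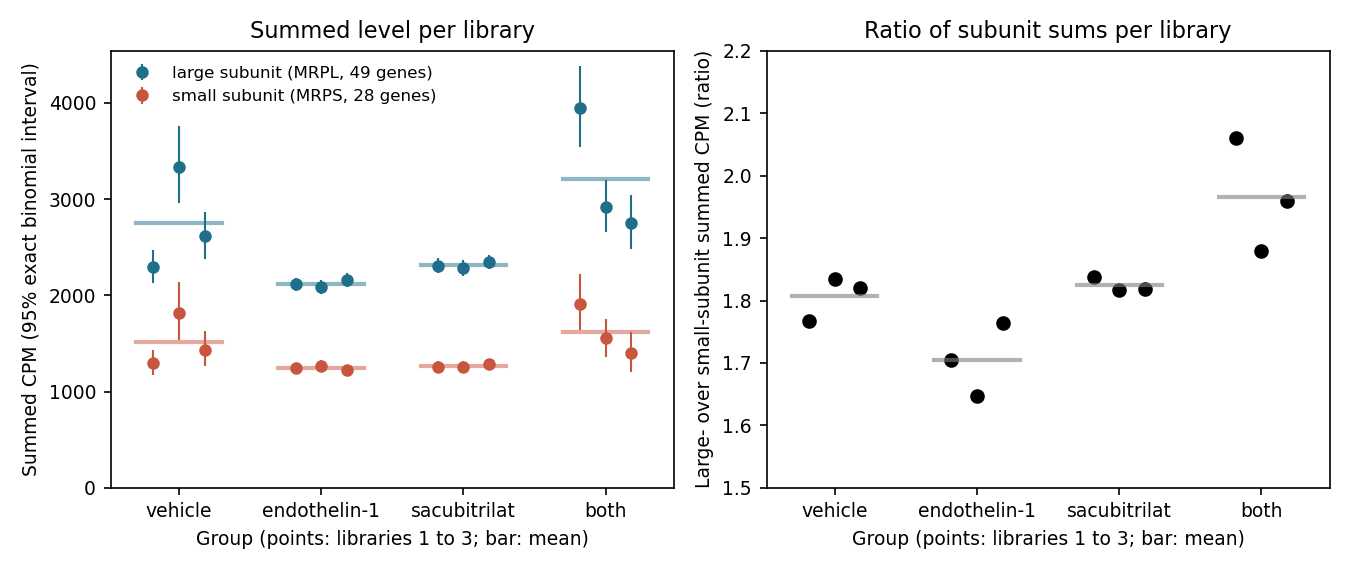
Summed CPM of the 49 large- and 28 small-subunit genes in each library with 95% exact binomial intervals (left), and the ratio of both sums (right, axis from 1.5 to 2.2); bars are group means. The combined libraries have the highest mean ratio (1.97) and the endothelin-1 libraries the lowest (1.71).

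The ratio of the subunit sums also differed and was highest with both compounds. The ratio of the large to the small sum was 1.77, 1.83 and 1.82 with vehicle, 1.70, 1.65 and 1.76 with endothelin-1, 1.84, 1.82 and 1.82 with sacubitrilat, and 2.06, 1.88 and 1.96 with both. Group means were 1.81 ± 0.035 (SD, n = 3), 1.71 ± 0.058, 1.82 ± 0.012 and 1.97 ± 0.090. The 3 combined libraries lay above the other 9, and the 3 endothelin-1 libraries lay below the other 9. MRPS30 and MRPS18A sit in the large subunit of the assembled ribosome despite their names, and with both moved there the mean ratios became 2.05, 1.86, 2.00 and 2.26, in the same order. As a score over chosen genes, the sums and ratios were given no test.

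A few abundant genes carried these differences. All members summed to 3361 ± 18.2 CPM with endothelin-1 and 4265 ± 806 with vehicle, a difference of -904 CPM. MRPL28 made up 27.3% of that difference, MRPL52 25.5% and MRPS18B 17.4%. With both compounds the sum was 4826 ± 905 CPM, 1465 CPM above endothelin-1, and 7 genes (MRPL28, MRPL52, MRPL30, MRPS18B, MRPL23, MRPS11 and MRPS18A) made up 99.4% of that excess. The excess is a net value. With MRPL2, MRPL12 and MRPS25 added the share was 112.6%, and lower levels of other members offset the rest. In contrast, the median large-subunit gene was at 38.3 CPM with endothelin-1 and 30.5 CPM with both. The median small-subunit gene was at 36.0 and 40.7 CPM. With both against endothelin-1 the median log2 fold change was -0.21 over tested large-subunit genes and -0.01 over small-subunit genes. For both against sacubitrilat these medians were -0.23 and 0.07, and for endothelin-1 against vehicle 0.17 and 0.06. The ratio of sums thus does not describe the typical gene of a subunit. The 6 highest large-subunit genes took 26.2% of the large-subunit sum with endothelin-1, 26.1% with sacubitrilat, 43.0% with vehicle and 54.7% with both. For the 6 highest small-subunit genes these shares were 39.1%, 38.0%, 49% and 51.5%.

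With endothelin-1, the first primary comparison, 9 members fell and 5 rose against vehicle, while 62 were not called. These are 14 of 76, and 23.2% of all tested genes were called (edgeR quasi-likelihood test, adjusted p under 0.05 over all 11203 genes). By direction 11% of all tested genes were higher and 12.2% lower. Libraries of both groups did not overlap for 12 members that were higher and 13 that were lower, beside 24.1% and 19% of all tested genes. The median log2 fold change was 0.09 over members and 0.10 over all tested genes. MRPL52, MRPL23, MRPL2, MRPL28, MRPL30, MRPL33, MRPS18A, MRPS11 and MRPS18B fell. MRPL4, MRPL16, MRPL19, MRPL49 and MRPS9 rose. MRPS9, which stands outside the rule for named genes, was named after its values were seen.

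With both compounds against endothelin-1 alone, the second primary comparison, 13 members were higher and 6 lower, beside 34.4% of all tested genes called. By direction 16.6% of all tested genes were higher and 17.8% lower. Without overlap of libraries 21 members were higher and 20 lower, beside 20.9% and 31.6%. The median was -0.12 over members and -0.23 over all tested genes. The large subunit had 8 higher and 4 lower of 48 tested members, and the small subunit 5 and 2 of 28. Members with bacterial homologues had 10 higher and 5 lower of 47, and mitochondria-specific members 3 and 1 of 29. MRPL11 and MRPS25 (higher) and MRPS17 (lower) stand outside the rule for named genes and are named because their calls were seen.

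**Figure D2:**
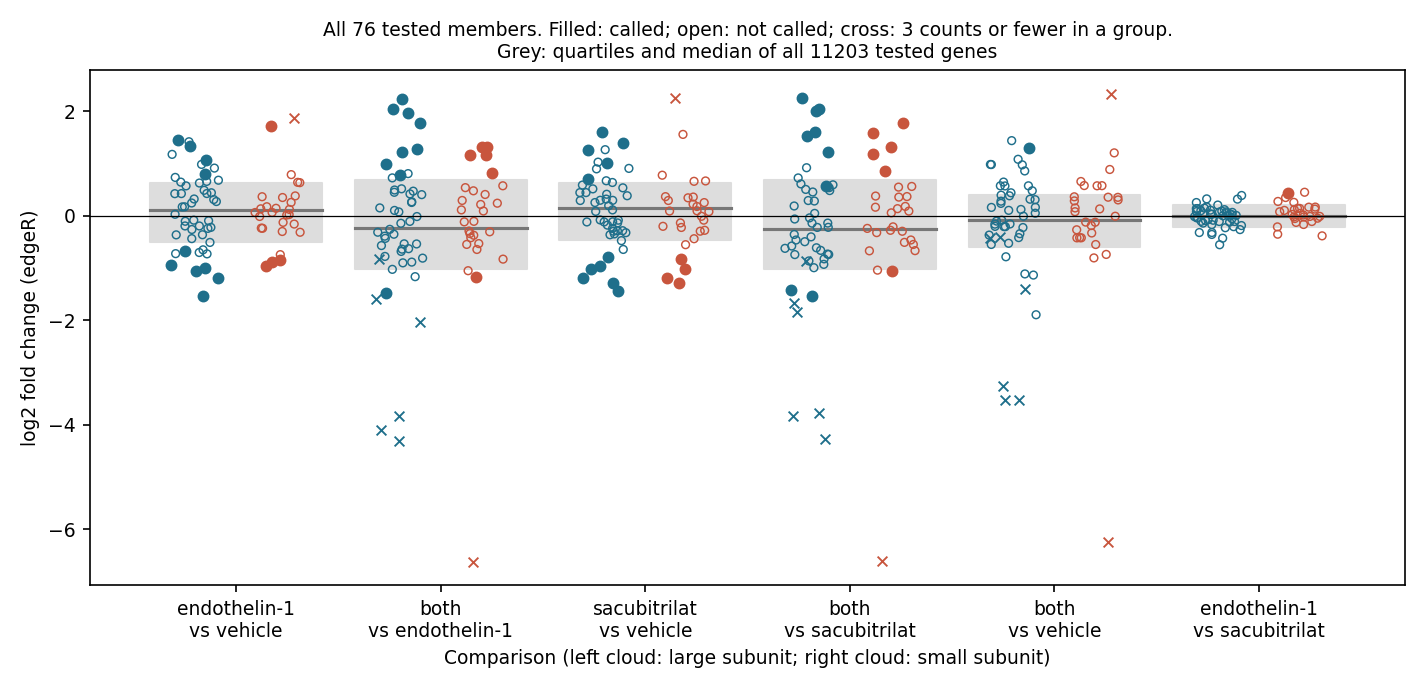
The log2 fold change of each of the 76 tested members in 6 comparisons, large subunit in blue and small subunit in red, over the quartiles and median of all 11203 tested genes in grey. Endothelin-1 against sacubitrilat has the narrowest spread, from -0.56 to 0.45, and crosses mark members with 3 counts or fewer in a group.

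Among large-subunit members with bacterial homologues, MRPL28 had the highest mean level and also the largest SD with vehicle and with both. It lies on chromosome 16 (366969 to 371289, minus strand, GRCh38) and overlaps TMEM8A on the same strand. It stood at 186, 680 and 334 CPM with vehicle, 155, 150 and 155 with endothelin-1, 150, 168 and 168 with sacubitrilat, and 1146, 554 and 311 with both. Every vehicle and combined library lay above every single-compound library. The counts behind the vehicle values were 59, 55 and 57, from libraries of 316932, 80844 and 170644 counts, and the CPM was highest in the library with the lowest total. MRPL28 fell with endothelin-1 against vehicle (log2 fold change -0.99 ± 0.25 SE, edgeR adjusted p 0.00314) and was higher with both than with endothelin-1 (1.96 ± 0.23, adjusted p 2.52e-08).

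MRPL30, whose promoter carried the ETS and NRF1 letters, was higher with both compounds than in every other group. Its values were 103, 12.4 and 158 CPM with vehicle, 51.8, 65.3 and 47.4 with endothelin-1, 58.0, 57.0 and 58.8 with sacubitrilat, and 298, 242 and 267 with both. The combined libraries lay above the other 9, and the vehicle libraries spread across the single-compound range, the lowest of them resting on 1 count. MRPL30 was higher with both than with endothelin-1 by 2.23 ± 0.24 (edgeR adjusted p 4.08e-09). It was the single member called between both and vehicle, at 1.29 ± 0.29 (edgeR adjusted p 0.0457), a comparison in which 0.179% of all tested genes were called, 0.0803% higher and 0.0982% lower. That call was lost in 13 of 19 alternatives, among them without any 1 endothelin-1, sacubitrilat or combined library and without vehicle library 1 (adjusted p 0.055 to 0.172 over those 13 with edgeR or limma-voom). The fall with endothelin-1 against vehicle (-0.94 ± 0.28, edgeR adjusted p 0.0109) was lost without vehicle library 1 or 3, with limma-voom, without the filter on low counts and with libraries thinned to equal totals. MRPL30 overlaps the annotated genes AC079447.1 and AC092587.1 on the same strand.

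MRPL23, which lies by the exit of the nascent chain tunnel, was at 91.0, 140 and 119 CPM with vehicle, 48.8, 41.4 and 45.0 with endothelin-1, 54.4, 48.5 and 45.5 with sacubitrilat, and 258, 169 and 174 with both. All vehicle and combined libraries lay above all single-compound libraries. It fell with endothelin-1 by 1.19 on the log2 scale (SE 0.24, edgeR adjusted p 0.000229) and was higher with both than with endothelin-1 by 2.05 ± 0.23 (edgeR adjusted p 6.64e-09). The first of these calls was lost with thinned libraries. MRPL23 overlaps the antisense gene MRPL23-AS1, and its deposited counts were not whole in 75% of libraries. MRPL2, a protein next to the peptidyl transferase centre, was at 75.7, 229 and 87.9 CPM with vehicle, 51.8, 46.5 and 43.6 with endothelin-1, 48.1, 41.4 and 31.2 with sacubitrilat, and 137, 107 and 104 with both. Its libraries separated in the same way, though its fall with endothelin-1 (-1.06 ± 0.27, edgeR adjusted p 0.00307) was lost without the second vehicle library (adjusted p 0.0593).

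MRPL12, a stalk protein that recruits translation factors, was at 56.8, 136 and 58.6 CPM with vehicle, 47.4, 38.7 and 37.5 with endothelin-1, 32.7, 62.3 and 46.3 with sacubitrilat, and 155, 81.9 and 92.6 with both. It was higher with both than with endothelin-1 (1.28 ± 0.34, edgeR adjusted p 0.00333), a call lost without the first combined library (adjusted p 0.0682). MRPL33, which overlaps BABAM2 on the same strand, had overlapping vehicle, sacubitrilat and combined libraries, with group means of 118, 102 and 129 CPM against 76.3 with endothelin-1. Its fall with endothelin-1 (-0.68 ± 0.24, edgeR adjusted p 0.0381) was lost in 9 of 19 alternatives, among them without vehicle library 1, endothelin-1 library 1 or any 1 combined library. With both against endothelin-1 it was higher by 0.78 ± 0.28 (edgeR adjusted p 0.0282), a call lost without vehicle library 1 or 3 or any 1 combined library.

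Some bacterial-type large-subunit members moved the other way. MRPL4, which lines the nascent chain tunnel, was at 56.8, 86.6 and 70.3 CPM with vehicle, 118, 102 and 113 with endothelin-1, 105, 115 and 116 with sacubitrilat, and 103, 69.3 and 51.9 with both. The endothelin-1 libraries lay above the vehicle libraries, and MRPL4 rose by 0.80 ± 0.25 (edgeR adjusted p 0.0152), a call lost without the first vehicle library and with thinned libraries. MRPL19, whose promoter held none of the motifs, was at 9.47, 12.4 and 35.2 CPM with vehicle, 37.9, 43.1 and 48.9 with endothelin-1, 39.7, 50.5 and 44.8 with sacubitrilat, and 17.2, 6.30 and 22.2 with both. All single-compound libraries lay above all others, from 1 to 6 counts in the latter. MRPL19 rose with endothelin-1 by 1.33 ± 0.43 (edgeR adjusted p 0.0222) and was lower with both than with endothelin-1 (-1.49 ± 0.53, edgeR adjusted p 0.0278). The first of these calls was lost without vehicle library 1 or 2 or endothelin-1 library 3, and the second without endothelin-1 library 3 or combined library 2. MRPL16 rose with endothelin-1 by 1.45 ± 0.49 (edgeR adjusted p 0.028), from 6 counts over the 3 vehicle libraries, and lost the call without the first or the third of them.

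Several members had 1 count or fewer over the 3 combined libraries, where a level of 3 counts equals 18.9 to 34.4 CPM. MRPL34, a bacterial-type member, had 79, 64 and 86 counts with endothelin-1 and 0, 1 and 0 with both. Relative to library totals, this was a ratio of 0.0570 with a 95% counting interval of 0.00144 to 0.321. MRPL15 likewise had 1 count over the combined libraries against 192 with endothelin-1, a ratio of 0.0680 (0.00171 to 0.383). The mitochondria-specific MRPL49 had 1 count against 268, a ratio of 0.0487 (0.00123 to 0.274). Against vehicle MRPL49 had risen with endothelin-1 (1.06 ± 0.36, edgeR adjusted p 0.0294), a call lost without vehicle library 1 or 2 or endothelin-1 library 3. All 3 were called lower with both than with endothelin-1 in edgeR, and against vehicle none was (adjusted p 0.127 to 0.207). The small-subunit gene MRPS17 had 0.5 deposited counts with both and 67 with endothelin-1, which, with the group's total taken at its floor of 3 counts, was at least 1.71-fold lower.

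Among mitochondria-specific large-subunit members, MRPL52 had the highest level. It lies on chromosome 14 (22829879 to 22835037, plus strand) and its promoter held the 2 YY1 matches. It stood at 151, 458 and 346 CPM with vehicle, 79.7, 93.6 and 89.3 with endothelin-1, 115, 104 and 114 with sacubitrilat, and 344, 302 and 282 with both. All vehicle and combined libraries lay above all single-compound libraries. MRPL52 fell with endothelin-1 by 1.53 on the log2 scale (SE 0.20, edgeR adjusted p 3.94e-07) and was higher with both than with endothelin-1 by 1.76 ± 0.22 (edgeR adjusted p 7.66e-08). Both calls held in all alternatives run.

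MRPL41, also mitochondria-specific, was at 142, 124 and 141 CPM with vehicle, 145, 129 and 138 with endothelin-1, 124, 121 and 116 with sacubitrilat, and 206, 126 and 193 with both. It passed no test against vehicle or endothelin-1. MRPL58, a peptidyl-tRNA hydrolase built into the large subunit, had group means of 15.4, 21.3, 22.5 and 24.2 CPM, and MRPL36 had 48.6, 44.7, 45.5 and 65.0. Neither was called in any comparison.

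**Figure D3:**
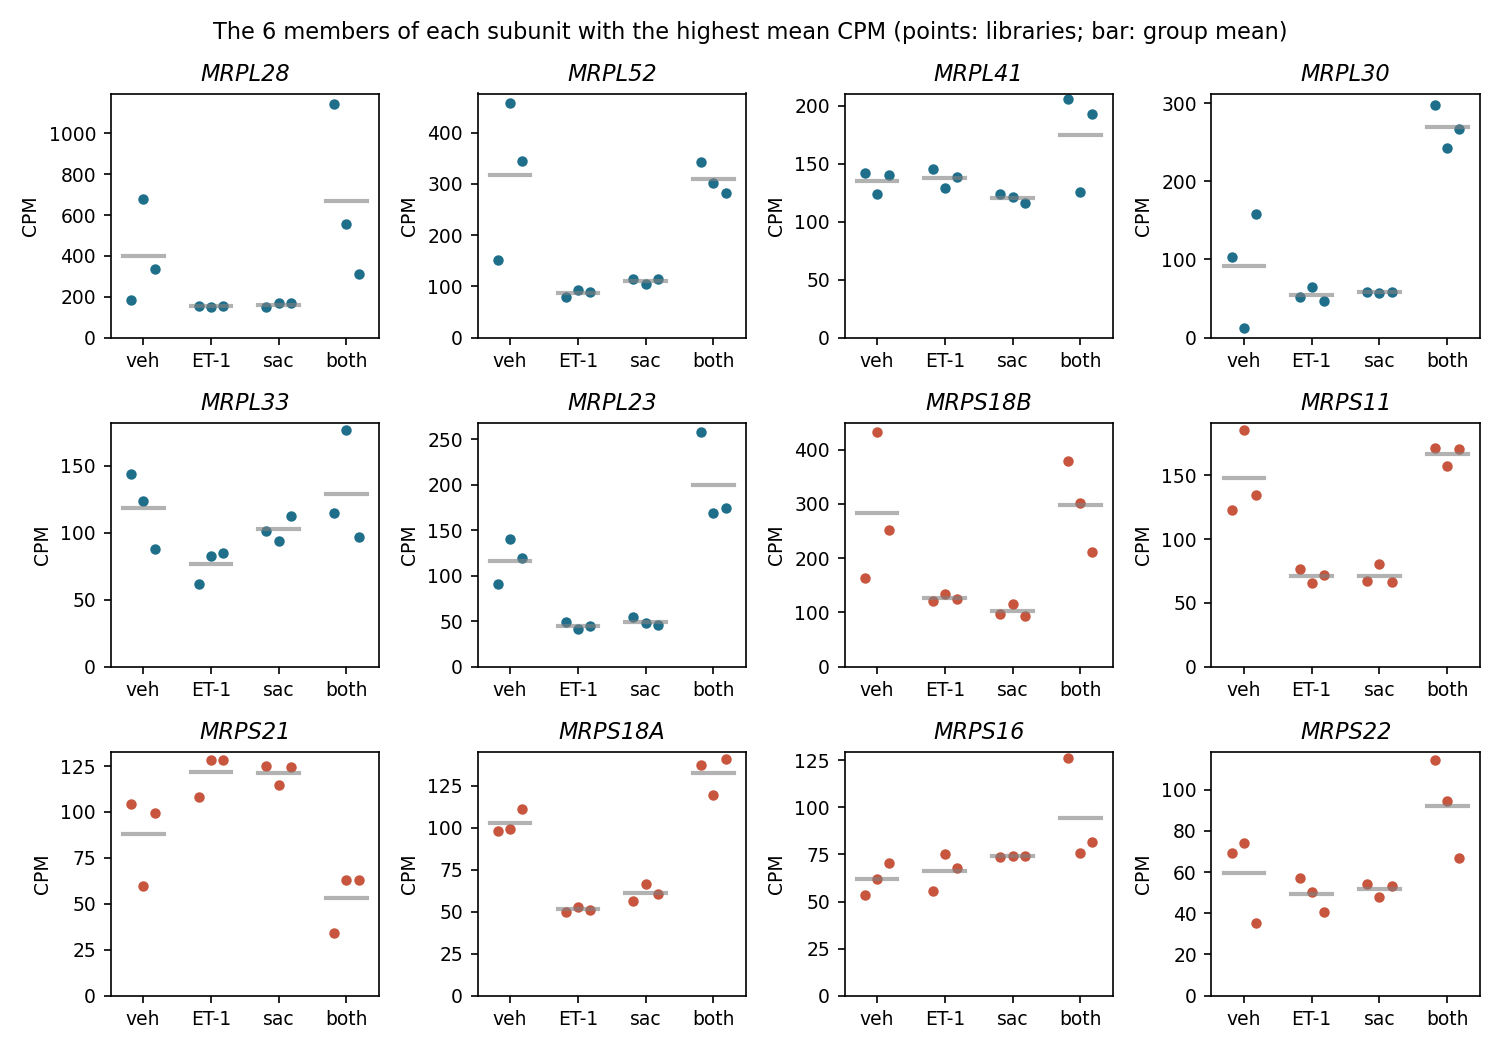
CPM in each library for the 6 members of each subunit with the highest mean, each panel with its own axis from 0 (veh, vehicle; ET-1, endothelin-1; sac, sacubitrilat). The endothelin-1 and sacubitrilat points lie close together, for example 150 to 168 CPM for MRPL28, while its vehicle points run from 186 to 680; MRPS18A points stay close together in every group.

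Of the 3 paralogues that share a bacterial small-subunit homologue, MRPS18A and MRPS18B were called and MRPS18C was not. MRPS18B, in the small subunit, was at 164, 433 and 252 CPM with vehicle, 120, 133 and 124 with endothelin-1, 97.7, 115 and 92.9 with sacubitrilat, and 378, 302 and 211 with both. MRPS18A, in the large subunit, was at 97.8, 99.0 and 111 CPM with vehicle, 49.95, 52.9 and 51.2 with endothelin-1, 56.6, 66.2 and 60.4 with sacubitrilat, and 137, 120 and 141 with both. For both genes all vehicle and combined libraries lay above all single-compound libraries, and the replicates of MRPS18A stayed close together in every group. MRPS18B fell with endothelin-1 by 0.85 on the log2 scale (SE 0.20, edgeR adjusted p 0.00136) and MRPS18A by 0.96 (SE 0.23, edgeR adjusted p 0.00211). With both compounds against endothelin-1 the values were 1.15 ± 0.21 (edgeR adjusted p 5.87e-05) and 1.32 ± 0.25 (edgeR adjusted p 9.14e-05). The call of MRPS18A against vehicle was lost without the first vehicle library and with thinned libraries, and MRPS18B lost both calls with thinned libraries. MRPS18C had group means of 26.6, 25.2, 30.2 and 34.6 CPM and was not called in any comparison. Whether the 3 genes differ from each other was not tested.

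Of the other small-subunit members, MRPS11 was at 123, 186 and 135 CPM with vehicle, 76.3, 65.8 and 72.1 with endothelin-1, 67.6, 80.6 and 66.0 with sacubitrilat, and 172, 157 and 170 with both. It separated the libraries as MRPS18A did, and was higher with both than with endothelin-1 by 1.17 ± 0.23 (edgeR adjusted p 0.00015). Its fall with endothelin-1 (-0.89 ± 0.21, edgeR adjusted p 0.00172) was lost without the first vehicle library. MRPS21 went the other way, at 104, 59.7 and 99.6 CPM with vehicle, 108, 128 and 128 with endothelin-1, 125, 115 and 125 with sacubitrilat, and 34.4, 63.0 and 63.0 with both. It was lower with both than with endothelin-1 (-1.17 ± 0.31, edgeR adjusted p 0.00361) and did not pass against vehicle in either single-compound group.

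MRPS22, a mitochondria-specific member, had group means of 59.6 ± 21.3, 49.4 ± 8.30, 51.9 ± 3.34 and 91.9 ± 24 CPM. Its higher level with both than with endothelin-1 (0.81 ± 0.31, edgeR adjusted p 0.0366) was lost without any 1 vehicle or combined library. MRPS12, a protein of the decoding centre, had means of 45.9, 52.8, 44.6 and 63.7 CPM, MRPS16 had 61.9, 66.3, 73.9 and 94.4, and MRPS30 had 12.9, 15.2, 14.0 and 9.14. None of these 3 was called in any comparison.

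Sacubitrilat alone gave counts of members close to those of endothelin-1, with which it shares the vehicle libraries. Against vehicle 6 members rose and 10 fell, beside 19.9% of all tested genes called (8.68% higher and 11.2% lower). MRPL52 fell by 1.30 on the log2 scale (SE 0.20, edgeR adjusted p 6.72e-06), MRPS18B by 1.28 (SE 0.21, adjusted p 1.44e-05) and MRPL2 by 1.45 (SE 0.28, adjusted p 0.000204). MRPL40 rose by 1.60 ± 0.54 (edgeR adjusted p 0.0322), a call lost without vehicle library 1 or 3 or sacubitrilat library 2 or 3. MRPS28 had 84 counts with sacubitrilat and 2 with vehicle, a ratio relative to library totals of 5.21 with a 95% counting interval of 1.40 to 43.7, and was named after its values were seen. With both compounds against sacubitrilat, 12 members were higher and 7 lower, beside 35% of all tested genes called (17.2% higher and 17.8% lower). MRPL30 led the higher ones at 2.26 ± 0.24 (edgeR adjusted p 3.47e-09). MRPL41 was higher by 0.56 ± 0.22 (edgeR adjusted p 0.0466), a call lost without any 1 vehicle or combined library.

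Between the single-compound groups, whose totals were alike, 1 member was called. MRPS18B was higher with endothelin-1 than with sacubitrilat by 0.43 ± 0.13 (edgeR adjusted p 0.0299), 1 of 76 members, beside 11.2% of all tested genes (6.44% higher and 4.78% lower). That call was lost without any 1 endothelin-1 library and without sacubitrilat library 1 or 3. Fold changes ran from -0.56 to 0.45, and 8 members had an unadjusted p under 0.05. Of 13 cardiomyocyte markers 8 were higher with endothelin-1 than with sacubitrilat, and their part in the levels of the members was not tested. All 76 members had a 95% interval within 1 of 0 on the log2 scale, and 44 had one within 0.5. The order of member levels was also alike in these groups, with a Spearman rho of 0.966 over the 77 genes, which are not independent. It was 0.875 between vehicle and both, where libraries were shallow.

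**Figure D4:**
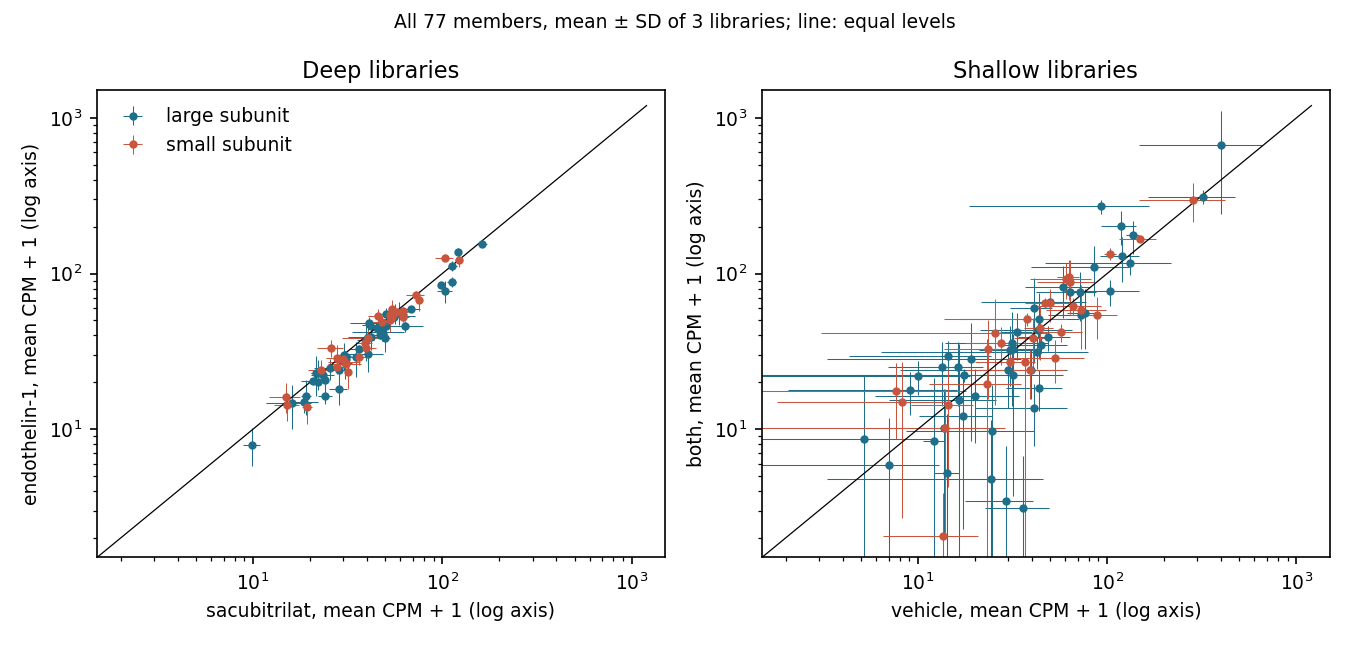
Group means ± SD of CPM + 1 for the 77 members on log axes, for sacubitrilat against endothelin-1 (left, deep libraries) and vehicle against both (right, shallow libraries). Points on the left lie close to the line of equal levels (rho 0.966) and those on the right scatter more (rho 0.875).

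The levels of members were spread over a wide range in each group. CPM from 3′-end counts is not scaled by length, since each transcript gives reads near its end, and levels of different genes are compared here on that scale. With endothelin-1 large-subunit genes ran from 6.97 to 153 CPM and small-subunit genes from 12.9 to 126. With both compounds the ranges widened to 2.10 to 670 and 1.05 to 297. Of the 77 members, 8 (MRPL28, MRPL52, MRPL23, MRPL2, MRPS18B, MRPS11, MRPS18A and MRPS25) were higher in every vehicle and combined library than in any single-compound library, and 6 (MRPL17, MRPL49, MRPL19, MRPS21, MRPS26 and MRPS6) were lower, beside 9.79% and 13.7% of all tested genes. These 14 were listed after their values were seen. The matching fitted measure, the sum of log2 levels with vehicle and both less the sum with the single compounds, was called in edgeR for 15 members above 0 and 15 below, beside 46.1% of all tested genes (20.1% above and 26% below). The 13 members that were higher with both than with endothelin-1 had a median level of 51.4 CPM in the endothelin-1 libraries, against 29.2 for the 57 members not called. Over all libraries, the combined ones that enter the call included, these medians were 103 and 32.7 CPM. Deposited counts that were not whole occurred in 11 of those 13 and in 19 of those 57.

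Of 5 tested proteins of the mitochondrial ribosome that carry other names, 1 was called in pairwise comparisons, GADD45GIP1 of the large subunit. This is 20% for endothelin-1 against vehicle, beside 23.2% of all tested genes. It is also 20% for both against endothelin-1 (beside 34.4%) and for endothelin-1 against sacubitrilat (beside 11.2%). GADD45GIP1 was at 139, 247 and 223 CPM with vehicle, 66.8, 60.4 and 76.8 with endothelin-1, 101, 109 and 99.3 with sacubitrilat, and 149, 132 and 200 with both. It fell with endothelin-1 against vehicle (-1.37 ± 0.21, edgeR adjusted p 4.08e-06), was higher with both than with endothelin-1 (1.19 ± 0.25, edgeR adjusted p 0.000308), and was lower with endothelin-1 than with sacubitrilat (-0.47 ± 0.13, edgeR adjusted p 0.0128). DAP3, a GTP-binding protein of the small subunit, had group means of 84.7, 93.1, 88.8 and 55.4 CPM and was not called in a pairwise comparison. CHCHD1, AURKAIP1 and PTCD3 were not called either.

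Of 23 tested factors that assemble the ribosome, 3 rose and 2 fell with endothelin-1 against vehicle (21.7% called, beside 23.2% of all tested genes). With both against endothelin-1, 3 were higher and 1 lower (17.4%, beside 34.4%). FASTKD2, an RNA-binding protein of mitochondrial RNA granules, was at 75.7, 383 and 152 CPM with vehicle, 28.6, 34.6 and 27.3 with endothelin-1, 33.8, 47.3 and 32.3 with sacubitrilat, and 412, 148 and 178 with both. It fell with endothelin-1 (-2.23 ± 0.32, edgeR adjusted p 1.89e-06) and was higher with both (2.84 ± 0.33, edgeR adjusted p 1.21e-08). SPG7, a subunit of the protease that matures MRPL32, fell by 1.18 on the log2 scale (SE 0.20, edgeR adjusted p 2.52e-05) and was higher with both by 1.80 ± 0.20 (edgeR adjusted p 7.36e-09). The RNA helicase DHX30 rose with endothelin-1 (1.04 ± 0.31, edgeR adjusted p 0.0114) and was lower with both (-1.53 ± 0.40, edgeR adjusted p 0.00317). AFG3L2, the partner of SPG7 in that protease, was the single assembly factor called between endothelin-1 and sacubitrilat, at 0.54 ± 0.15 (edgeR adjusted p 0.011).

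Of 18 tested translation factors 1 fell with endothelin-1 and 1 was higher with both (5.56% called each time, beside the same 23.2% and 34.4% of all tested genes). It was GFM1 in both cases, the mitochondrial elongation factor G (-1.13 ± 0.28, edgeR adjusted p 0.00267, and 1.04 ± 0.34, edgeR adjusted p 0.0154). Of 14 tested mitochondrial aminoacyl-tRNA synthetases 2 (14.3%) fell with endothelin-1, NARS2 by 2.11 on the log2 scale (SE 0.39, edgeR adjusted p 9.48e-05) and TARS2 by 1.05 (SE 0.38, adjusted p 0.0411). NARS2 was higher with both by 1.93 ± 0.48 (edgeR adjusted p 0.00196). In the list for mitochondrial transcription and DNA maintenance 1 of 9 tested genes rose with endothelin-1, POLG, and 1 was higher with both, POLG2.

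The rRNAs that the members assemble with are read only in part by poly(dT) capture. MT-RNR1, the rRNA of the small subunit, had group means of 3893 ± 1156, 6929 ± 213, 4422 ± 46.7 and 3287 ± 1072 CPM, and was lower with both than with endothelin-1 (-1.10 ± 0.30, edgeR adjusted p 0.00466). Of the 15 mitochondrially encoded mRNAs and rRNAs, 4 rose and 2 fell with endothelin-1 against vehicle, and 2 were higher and 6 lower with both against endothelin-1. These are 40% and 53.3% of the list, beside 23.2% and 34.4% of all tested genes.

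Among 12 tested regulators of mitochondrial biogenesis, 1 rose with endothelin-1 against vehicle (ESRRA), and 1 was higher and 1 lower with both against endothelin-1 (PPARGC1B and YY1). These are 8.33% and 16.7% of the list, beside 23.2% and 34.4% of all tested genes. YY1, whose motif stood in the MRPL52 promoter, was at 192, 99.0 and 129 CPM with vehicle, 192, 213 and 203 with endothelin-1, 198, 232 and 216 with sacubitrilat, and 143, 145 and 92.6 with both. Its difference between both and endothelin-1 was -0.75 ± 0.26 (edgeR adjusted p 0.0207). Between endothelin-1 and sacubitrilat, 2 of the 12 regulators were higher and 1 lower (25%), beside 11.2% of all tested genes. PPARGC1A, a coactivator of mitochondrial gene expression, was higher with endothelin-1 than with sacubitrilat (1.10 ± 0.22, edgeR adjusted p 0.000377), at 25.3, 27.8 and 29.1 against 12.5, 16.6 and 12.8 CPM. GABPB1, the partner of GABPA, was lower there (-0.64 ± 0.20, edgeR adjusted p 0.0327). For comparison, the cytosolic ribosomal proteins, of which 81 were tested, had 13 higher and 12 lower with endothelin-1 against vehicle. With both against endothelin-1 they had 15 higher and 22 lower. These are 30.9% and 45.7% called, beside the same 23.2% and 34.4% of all tested genes.

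Some markers of other cells followed the split between single-compound and other libraries. The 7 endoderm and liver markers summed to 197 to 680 CPM with vehicle and 445 to 584 with both, against 54.4 to 83.5 with endothelin-1 and 48.5 to 59.4 with sacubitrilat. Fibroblast markers were at 1806 to 5031 CPM with vehicle and 2005 to 4519 with both, against 6762 to 7624 and 7070 to 7376. Within that list THY1 went the other way, lower with endothelin-1 than with vehicle (-1.18 ± 0.28, edgeR adjusted p 0.00169) and higher with both than with endothelin-1 (1.55 ± 0.30, edgeR adjusted p 0.000122). Smooth muscle markers followed the split, at 523 to 2071 CPM with vehicle and 939 to 2279 with both. They were at 3591 to 3635 with endothelin-1 and 2774 to 2859 with sacubitrilat. Epicardial markers did not follow the split, at 93.8 to 110 CPM with vehicle, 42.4 to 48.2 with endothelin-1, 142 to 179 with sacubitrilat and 31.5 to 91.7 with both. Of 13 cardiomyocyte markers 10 were higher and 0 lower with endothelin-1 against vehicle, beside 11% and 12.2% of all tested genes. With both against endothelin-1, 2 were higher and 8 lower, beside 16.6% and 17.8%. The part of these markers in the levels of the members was not tested. With every library thinned to 80000 counts 10 members could be tested among 1853 genes. Of these, 7 were higher and 0 lower with both than with endothelin-1, beside 421 and 364 of all genes in that fit (42.4%). Against vehicle, 3 (MRPL28, MRPL52 and MRPS11) fell and 0 rose with endothelin-1, beside 271 and 176 (24.1%). At that depth the filter on low counts kept only members with high levels in about as many libraries as a group holds. A member could thus enter through the combined libraries alone, while MRPL15, MRPL34 and MRPL49, lower with both than with endothelin-1, did not enter. The 7 and 0 were therefore set in part by the filter and do not describe the direction of all members. MRPL52 then had -1.84 (edgeR adjusted p 0.00399) against vehicle and 1.95 (edgeR adjusted p 0.00129) for both against endothelin-1. MRPL23, MRPL30, MRPL33 and MRPS18A had -1.25, -1.13, -1.22 and -1.17 against vehicle (edgeR adjusted p 0.0651 to 0.206), and MRPL4 had 0.13 (adjusted p 0.88). MRPS18B had -0.73 (edgeR adjusted p 0.198) against vehicle and 0.91 (adjusted p 0.0755) for both against endothelin-1. Without the filter on low counts the calls of MRPL2, MRPL12, MRPL33, MRPS11 and MRPS22 for both against endothelin-1, and of MRPL33, MRPS11 and MRPS18A against vehicle, were lost. In both primary comparisons the compound and the library total changed together, so an effect of the compounds cannot be told apart from one of whatever set the library totals.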

How the data were processed

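Gene counts from 3′-end libraries (poly(dT) priming with a molecular identifier, stranded, single-end) were deposited for 12 libraries, 3 in each of 4 groups. The deposited estimated counts are not all whole, and per the submitters' processing notes the authors used fastp 0.24.0, featureCounts and GRCh38. For the aligner, the annotation release, the molecular identifiers and the strand setting, the choice is not given in the sources used here. CPM was in the authors' deposited table beside the counts and equals each count scaled by its library total. The 92 spike-in rows held 0 counts and were left out.

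Counts were rounded and fitted over all groups with edgeR 4.0.16 (R 4.3.3), with filterByExpr, TMM scaling and the quasi-likelihood test without a replicate block. P-values were Benjamini-Hochberg adjusted over all tested genes, with a threshold of 0.05. Alternatives were no filter, RLE scaling, DESeq2 1.42.0, limma-voom (limma 3.58.1), a replicate block, thinning to 80000 counts, exchanged labels of the single-compound groups and each library left out. After seeing the data, libraries under 100000 counts were left out together. The scripts were tested on simulated data. Exact binomial intervals (95%) and floors (3 counts) describe counting error alone. Figures used matplotlib 3.10.9 under Python 3.11.15.

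Members and lists were chosen with earlier results of these data known. Named members were the 6 with the highest mean CPM per subunit, up to 4 called per direction and comparison by adjusted p, those called in both primary comparisons, and a panel (MRPL12, MRPL36, MRPL58, MRPS12, MRPS18A, MRPS18B, MRPS18C, MRPS30). From other lists up to 3 called genes per direction were named. Replicate numbers were checked for pairing: over 18 pairs of same-numbered libraries the correlation of deviations from group means ran from -0.145 to 0.041, and 0 exceeded 0.1, so numbers were not taken to pair libraries.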

Additional observations from a re-analysis of the deposited data

Results flagged for a closer look

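The effect of adding one compound was called as depending on the other for 30 of 76 members, beside 46.1% of all tested genes (edgeR, adjusted p under 0.05). Among named members 11 lay above 0 and 7 below. The measure was the sum of the log2 levels with vehicle and with both, less the sum with endothelin-1 and with sacubitrilat. Among those above 0, MRPL23 had 3.23, MRPL30 3.20, MRPL52 3.06, MRPL28 2.99 and MRPL2 2.66. The small-subunit genes MRPS18B, MRPS11 and MRPS22 had 2.44, 2.19 and 1.10, and MRPS18A had 2.15. MRPL12 had 1.93 and MRPL33 1.13. Below 0 lay MRPL19 with -2.75, MRPL40 with -2.04, MRPS21 with -1.42 and MRPL4 with -1.39. MRPL15, MRPL34 and MRPL49 were also called below 0 and kept that call in all 18 alternatives, but with 1 count over the combined libraries no fitted value is given. The call was lost in 7 of 18 alternatives for MRPS22, 5 of 18 for MRPL40, 3 of 19 for MRPL33 and 1 of 19 for MRPL4. This sum sets the 6 libraries with low totals against the 6 with high totals, so an effect of the compounds cannot be told apart from one of whatever set the totals.

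The 80 annotated pseudogenes of the members, which the comparisons did not use, summed to 35.7 ± 3.84 CPM with both compounds (40.1, 33.6 and 33.3), against 14.5 ± 6.23 with vehicle, 9.04 ± 1.54 with endothelin-1 and 7.27 ± 2.32 with sacubitrilat. These sums rest on 3.5, 5.33 and 4.5 counts with both and 1.75 to 3.33 with vehicle. Their 95% counting intervals overlap, at 8.08 to 75.9 CPM for combined library 3 and 3.00 to 89.4 for vehicle library 2.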

How the results depend on the processing

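Of 1446 values for 78 calls of 20 named members under the alternatives, 1274 kept direction and call, 172 lost the call and 0 reversed. By call, 41 held in every alternative that tested them and 37 were lost in at least 1. With thinned libraries 30 calls held and 14 were lost, and calls of members that the filter then removed are not counted. Numbers of members called are given here where they moved by over 1.5 times or to or from 0, and smaller moves are not listed. Without the filter, 5 were lower with endothelin-1 against vehicle, 6 higher and 13 lower with both against endothelin-1, 6 lower with sacubitrilat against vehicle, 15 lower with both against sacubitrilat, 0 higher with both against vehicle and 0 with endothelin-1 against sacubitrilat. DESeq2 gave 3 higher with endothelin-1 and 2 with sacubitrilat against vehicle, 2 higher with both against vehicle and 0 with endothelin-1 against sacubitrilat. RLE scaling gave 2 higher with endothelin-1 against sacubitrilat. Limma-voom gave 0 higher there and 0 with both against vehicle. Thinned to 80000 counts, 10 members among 1853 genes were tested, those that a filter set by level kept. With endothelin-1 against vehicle 0 were higher and 3 lower, beside 176 and 271 of all genes in that fit (24.1%). With sacubitrilat against vehicle these were 0 and 4, beside 130 and 279 (22.1%). With both against endothelin-1 they were 7 and 0, beside 421 and 364 (42.4%). With both against sacubitrilat they were 7 and 0, beside 453 and 348 (43.2%). With endothelin-1 against sacubitrilat 0 were higher, beside 9 higher and 1 lower (0.54%). For the combined measure 8 were called above 0 and 0 below, beside 501 and 449 (51.3%). With the labels of the single-compound groups exchanged, endothelin-1 against sacubitrilat had 0 higher and 1 lower. Without libraries under 100000 counts, 1 was lower with both against vehicle and 2 higher with endothelin-1 against sacubitrilat. The cause of these moves was not tested.

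With a replicate block, 1 member was higher with sacubitrilat against vehicle, 0 with both against vehicle and 0 with endothelin-1 against sacubitrilat. Of 12 libraries, 1 correlated best with its own number.

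Leaving out each library in turn gave 2 to 6 higher and 5 to 11 lower with endothelin-1 against vehicle, 9 to 14 and 4 to 11 with both against endothelin-1, 0 to 6 and 6 to 11 with sacubitrilat against vehicle, 9 to 15 and 4 to 13 with both against sacubitrilat, 0 to 2 and 0 to 1 with both against vehicle, 0 to 2 and 0 to 0 with endothelin-1 against sacubitrilat, and 22 to 30 for the combined measure. The large-to-small ratio with both over that with endothelin-1 stayed at 1.13 to 1.18, and with endothelin-1 over vehicle at 0.927 to 0.960. The large sum ran from 1.34 to 1.62 and from 0.712 to 0.864, and the small sum from 1.19 to 1.39 and from 0.764 to 0.910. In vehicle and combined libraries the median member had 3 to 11 counts, which limits their precision.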
